A study of Macaca mulatta with 11 samples.

Results

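The genes described here encode the contractile apparatus of smooth muscle and the actomyosin machinery that most cells share. The 35 genes were chosen by name with earlier results of these data known, so that shares of all genes beside them are descriptive. They were sorted into 4 lists. These are 10 genes grouped as smooth muscle genes, 3 genes better known from striated muscle, 17 general actomyosin genes and 5 regulators. MYL9, MYLK and CSRP1 could also be placed in the general list, and TPM1, TPM2, CALD1 and CSRP2 in the smooth muscle list. On the arrays, 81 of 22215 probe sets carried the symbol of a member, alone (72) or together with another symbol (9). A probe set with 1 symbol measured 31 of the 35 genes, and these were compared with all 11963 genes measured in that way. All 10 smooth muscle genes, 2 of 3 striated muscle genes, 14 of 17 general genes and all 5 regulators were measured. TPM3, FLNA and FLNC were not analysed here, and ACTG1 was measured only together with ACTB.

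The genes were read in 11 cultures of mesenchymal stem cells, which are stromal cells of bone marrow that adhere to plastic, with 1 array for each culture. The donors were rhesus monkeys (Macaca mulatta), and by title 4 cultures were fetal, 4 infant and 3 adult. Of the fetal cultures, numbers 1 and 2 were from gestation day 120, and numbers 3 and 4 were taken from newborns. Infant arrays 1 to 4 came from donors aged 6, 6, 3 and 5 months. Adult arrays 1 and 2 came from donors aged 7 years and adult array 3 from a donor aged 8 years. No group carried a treatment or a genetic change, and all cultures were taken at passage 2, before confluence. Marrow was flushed from bones of the fetal-titled donors and aspirated from infants and adults, so that a fetal title and flushed marrow cannot be told apart. The labels do not say whether donors of one age were different animals, and p-values then measure only the spread between these cultures.

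Smooth muscle contracts when calcium activates myosin light chain kinase (MYLK), which phosphorylates the light chain MYL9 so that the heavy chain MYH11 pulls on filaments of smooth muscle actin (ACTA2, ACTG2). Calponin (CNN1), caldesmon (CALD1) and the tropomyosins regulate access of myosin to actin. In many of these genes the promoter is bound by serum response factor (SRF), whose cofactors of the myocardin family are held back by unpolymerised actin. Marrow stromal cells in culture carry stress fibres and share part of this programme with pericytes and myofibroblasts, while ACTB, MYH9 and MYL6 belong to the cytoskeleton of nearly every cell.

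Values are log2 of the deposited intensity, and differences are in log2 units. The array median lay between 164.9 and 169.6 in intensity, and correlations between arrays lay between 0.928 and 0.983. The probes were designed for human genes, so that levels of different genes were not ranked against each other. They were set against the median of all probe sets, and within a gene to pick its brightest probe set. Among stromal identity markers, 8 of 9 measured genes lay above 7.38, the median over all probe sets and arrays. They were ENG, THY1, CD44, COL1A1, COL1A2, PDGFRA, PDGFRB and VIM, while NT5E averaged 7.01, below this median. All 31 contractile genes lay above it. Each gene was read from its brightest probe set. A gene was called when its adjusted p, from limma with Benjamini-Hochberg adjustment over all probe sets, was under 0.05. Of the 9 stromal markers, 6 were higher and 3 lower in fetal than in adult cultures, where 50.1% of all genes were lower. PDGFRA was higher by 0.95 (SE 0.19, adjusted p = 0.0681) and CD44 by 0.55 (SE 0.13, adjusted p = 0.132). COL1A2 (-0.28), PDGFRB (-0.24) and NT5E (-0.12) were lower, and none of the 9 was called. PDGFRA rose by the test at gestation day 120 against adults (adjusted p = 0.0185), where 9 of 11963 genes were called higher.

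Between fetal and adult cultures the smooth muscle genes were lower in the fetal group. Of the 14 general actomyosin genes measured, 10 were lower and 4 higher. All 10 smooth muscle genes had a lower fetal mean, with a median difference of -0.74, where 50.1% of all genes were lower and their median was -0.00034. ACTG2 and CNN1 fell by the test in the fetal group, against 0.092% of all genes called lower and 0.092% called higher. Without the adjustment 8 of the 10 had p under 0.05 in the lower direction and 0 in the higher, against 4.13% and 5.79% of all genes. Fetal arrays lay wholly below adult arrays for 6 of the 10, namely ACTG2, CNN1, MYL9, TAGLN, MYLK and LMOD1. Over all genes, 4.27% had fetal arrays wholly below and 4.23% wholly above the adult arrays.

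**Figure D1:**
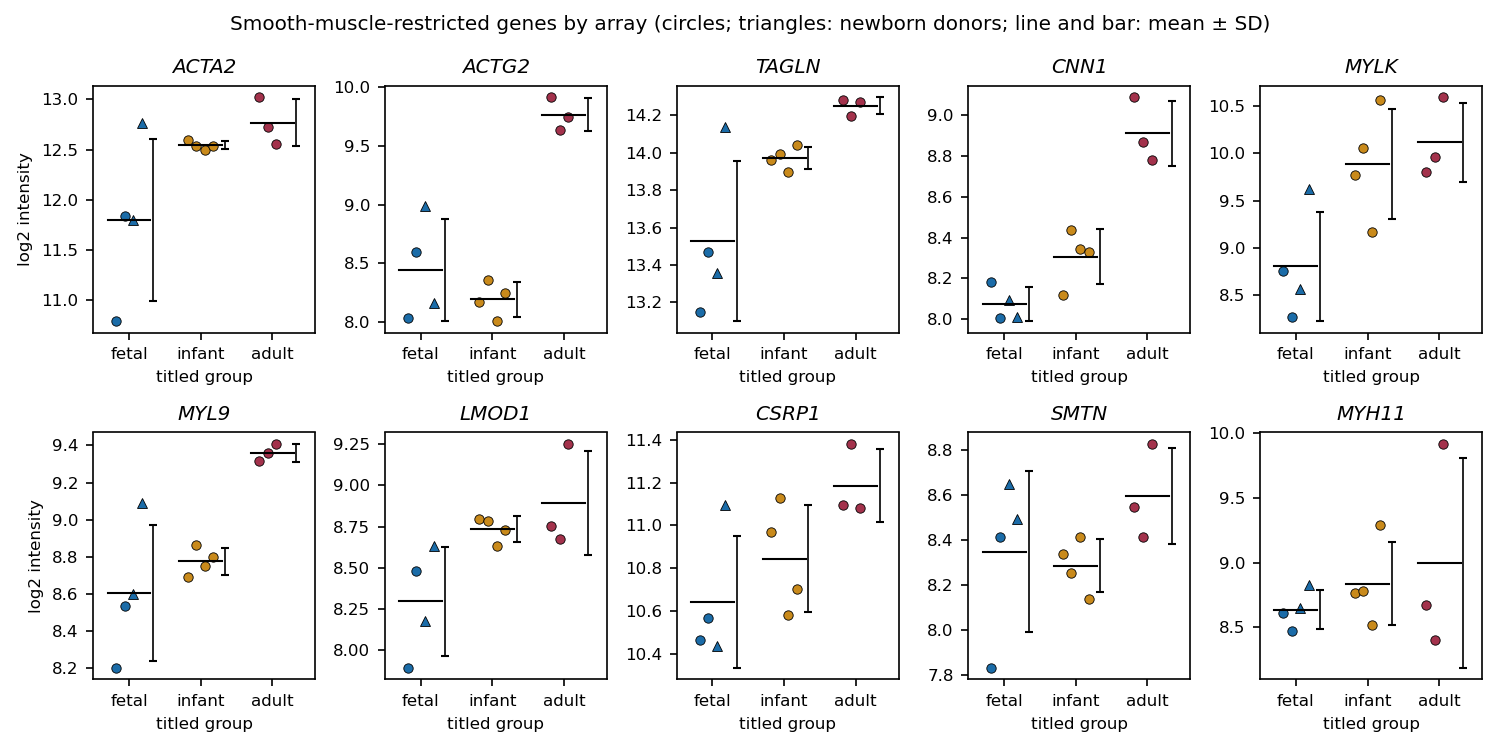
Log2 intensity (vertical axis) of the 10 smooth muscle genes on each array, by titled group (horizontal axis). Circles are arrays, triangles arrays of newborn donors, and lines with bars the group mean ± SD. The adult arrays of ACTG2 (9.63 to 9.92), CNN1 (8.78 to 9.09), MYL9 (9.31 to 9.41) and TAGLN (14.20 to 14.28) sit above every fetal and infant array.

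ACTG2 encodes the gamma actin of visceral smooth muscle. Its log2 intensity was 8.03, 8.60, 8.99 and 8.16 on fetal arrays 1 to 4, 8.17, 8.36, 8.00 and 8.24 on infant arrays 1 to 4, and 9.92, 9.63 and 9.75 on adult arrays 1 to 3. The adult arrays stood above all 8 others, and the fetal and infant arrays overlapped. The level was 2.50-fold lower in fetal than in adult cultures (difference -1.32, SE 0.19, adjusted p = 0.0160). It was 2.98-fold lower in infant than in adult cultures (-1.57, SE 0.19, adjusted p = 0.0106). Fetal and infant cultures differed by 0.25 with a 95% interval from -0.12 to 0.62.

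CNN1, calponin 1, binds actin and slows the myosin ATPase. It measured 8.18, 8.00, 8.09 and 8.01 on the fetal arrays, 8.12, 8.43, 8.35 and 8.33 on the infant arrays, and 9.09, 8.87 and 8.78 on the adult arrays. Adult cultures again lay above all others, with little spread within a group (SD 0.08 fetal, 0.13 infant and 0.16 adult). The fetal level was 1.79-fold lower than the adult level (-0.84, SE 0.11, adjusted p = 0.00815). The infant level differed from the adult by -0.61 (SE 0.11) and was not called (adjusted p = 0.146).

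Both calls between fetal and adult cultures depended on single arrays. The adjusted p of ACTG2 was 0.0521 without fetal array 1, 0.0541 without fetal array 2, 0.0842 without adult array 1 and 0.0652 without adult array 2. For CNN1 it was 0.0541 without fetal array 2, 0.0592 without adult array 1 and 0.0570 without adult array 2. The differences themselves ranged from -1.18 to -1.39 for ACTG2 and from -0.75 to -0.86 for CNN1 in these fits.

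MYL9, the regulatory light chain of smooth muscle myosin, was also highest in the adult cultures, without a call. Fetal arrays measured 8.20, 8.53, 8.60 and 9.09, infant arrays 8.69, 8.86, 8.75 and 8.80, and adult arrays 9.31, 9.36 and 9.41. The adult arrays were above the rest and had an SD of 0.05. The fetal difference from adult was -0.75 (SE 0.16, adjusted p = 0.0829) and the infant difference -0.59 (SE 0.16, adjusted p = 0.465).

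For ACTA2, MYLK and LMOD1 the infant arrays lay near the adult arrays, and for TAGLN they lay between fetal arrays 1 to 3 and the adult arrays. Fetal arrays 1 to 3 were the low ones for each of these genes. ACTA2 is the smooth muscle alpha actin that marks myofibroblasts. It measured 10.79, 11.84, 11.80 and 12.76 on the fetal arrays, 12.59, 12.54, 12.50 and 12.54 on the infant arrays, and 13.02, 12.73 and 12.56 on the adult arrays. Fetal array 4, from a newborn, was above all infant arrays and within the adult range. The fetal mean differed from the adult by -0.97 (SE 0.31, adjusted p = 0.304) and the infant mean by -0.23 (95% interval -0.88 to 0.43).

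TAGLN, transgelin or SM22-alpha, is an actin-binding protein and a standard early marker of smooth muscle. Its values were 13.15, 13.47, 13.36 and 14.14 in the fetal, 13.96, 13.99, 13.90 and 14.04 in the infant, and 14.28, 14.20 and 14.27 in the adult group. Fetal array 4 again lay above the infants, and no fetal or infant array reached the adult range. The fetal to adult difference was -0.72 (SE 0.17, adjusted p = 0.149), and the fetal to infant difference was -0.44 (SE 0.16, adjusted p = 0.626).

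MYLK, the kinase that switches myosin on, measured 8.76, 8.28, 8.56 and 9.62 on the fetal arrays, 9.78, 10.06, 9.17 and 10.56 on the infant arrays, and 9.80, 9.96 and 10.59 on the adult arrays. Fetal arrays 1 to 3 were below every other array, and infants and adults overlapped. The difference of fetal from adult was -1.31 (SE 0.33, adjusted p = 0.167) and of fetal from infant -1.09 (SE 0.30, adjusted p = 0.497). LMOD1, a leiomodin that nucleates actin filaments, measured 7.89, 8.48, 8.18 and 8.63 on the fetal arrays, 8.80, 8.79, 8.63 and 8.73 on the infant arrays, and 8.75, 8.67 and 9.25 on the adult arrays. No fetal array reached the adult range for LMOD1, and its fetal difference was -0.60 (SE 0.17, adjusted p = 0.248).

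Fetal array 4 bore on how many of these genes were called. Without it, 8 member probe sets were called between fetal and adult cultures in place of 2, those of ACTA2, ACTG2, CNN1, MYL9, MYLK and TAGLN as lower and those of TAGLN2 and MICAL2 as higher in the fetal group. In the same fit the calls over all 22215 probe sets were 120 in place of 29, so that the rise was not limited to the contractile genes.

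MYH11, the smooth muscle myosin heavy chain and the most restricted marker of mature smooth muscle, did not separate the groups. It measured 8.61, 8.47, 8.65 and 8.83 on the fetal arrays, 8.76, 8.78, 8.52 and 9.29 on the infant arrays, and 8.67, 8.40 and 9.92 on the adult arrays. Adult array 3 was the highest of the 11 and adult array 2 the lowest. The fetal difference from adult was -0.36 (SE 0.28, adjusted p = 0.769), and without adult array 3 it was 0.10. For the other smooth muscle genes, CSRP1, a LIM protein of the actin cytoskeleton, differed by -0.54 (SE 0.17, adjusted p = 0.300) and SMTN, smoothelin, by -0.25 (SE 0.17, adjusted p = 0.722).

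In bulk RNA, fewer cells of a contractile type and less RNA per cell cannot be told apart. Markers of other cell types that share contractile genes were therefore read on the same arrays. Of 8 pericyte markers, 6 had a mean above the median level, with KCNJ8 and ABCC9 below it. Lower in fetal than in adult cultures were 7 of the 8 (median difference -0.071), where 50.1% of all genes were lower. The 7 include CSPG4 (-0.0074), KCNJ8 (-0.023) and ABCC9 (-0.044). The mean level of the 8 per array ranged from 7.77 to 7.87 in fetal, 7.71 to 7.98 in infant and 7.85 to 8.04 in adult cultures. None was called between fetal and adult cultures (smallest limma adjusted p = 0.336), and 2, NOTCH3 and ANGPT1, had an unadjusted p under 0.05 in the lower direction, against 4.13% of all genes. NOTCH3, the receptor of mural cells, was lower by 0.34 in the fetal group on 8.01, 8.05, 7.73 and 8.08 against 8.24, 8.44 and 8.23 in adults, while RGS5 differed by 0.14. The part of pericytes in the result was not tested.

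Skeletal muscle markers were low, with 4 of 13 above the median level and array means of 7.28 to 7.33 in fetal, 7.25 to 7.38 in infant and 7.31 to 7.38 in adult cultures. Cardiac muscle markers averaged 7.37 to 7.46, 7.39 to 7.46 and 7.44 to 7.54 in the same order, with 3 of 7 above the median level. Of 11 leukocyte markers 7 were above it, with array means of 7.61 to 7.75, 7.49 to 7.70 and 7.67 to 7.72. Endothelial markers averaged 7.36 to 7.41, 7.32 to 7.53 and 7.39 to 7.51, with 3 of 7 above it. The median difference between fetal and adult cultures lay between -0.035 and 0.025 for these 4 lists. None of their genes was called by limma. At unadjusted p under 0.05, 6 of their 38 genes were lower in the fetal group, PECAM1 (-0.43), JCHAIN (-0.40), PAX7 (-0.37), MYOD1 (-0.30), NKX2-5 and TNNI3 (-0.26 each), and 2 were higher, MYL7 (0.29) and CD163 (0.28), against 4.13% and 5.79% of all genes. The part of these cell types in the result was not tested. In the list of striated muscle genes, ACTC1, the cardiac alpha actin, measured 7.57 to 7.90 on the fetal, 7.83 to 7.89 on the infant and 7.94 to 8.03 on the adult arrays. The ACTC1 difference between fetal and adult was -0.27 (SE 0.10, adjusted p = 0.410). DES, the muscle intermediate filament desmin, differed by -0.10 (SE 0.25, adjusted p = 0.952), a difference that was 0.014 without adult array 3 and 0.0045 without fetal array 1.

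More of the general actomyosin genes were lower than higher in the fetal group. Of the 14 measured, 10 were lower and 4 higher than in adult cultures, where 50.1% of all genes were lower. The median of the 14 was -0.14 (9 lower and 5 higher after quantile normalization, with a median of -0.22). None was called, where 0.092% of all genes were called lower and 0.092% higher. With p under 0.05 unadjusted there were 4 lower genes, TPM1, TPM2, CALD1 and CNN3, and 1 higher, TAGLN2, against 4.13% and 5.79% of all genes. TPM1, TPM2 and CALD1 had fetal arrays wholly below the adult arrays, and TAGLN2 wholly above them, against 4.27% and 4.23% of all genes.

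**Figure D2:**
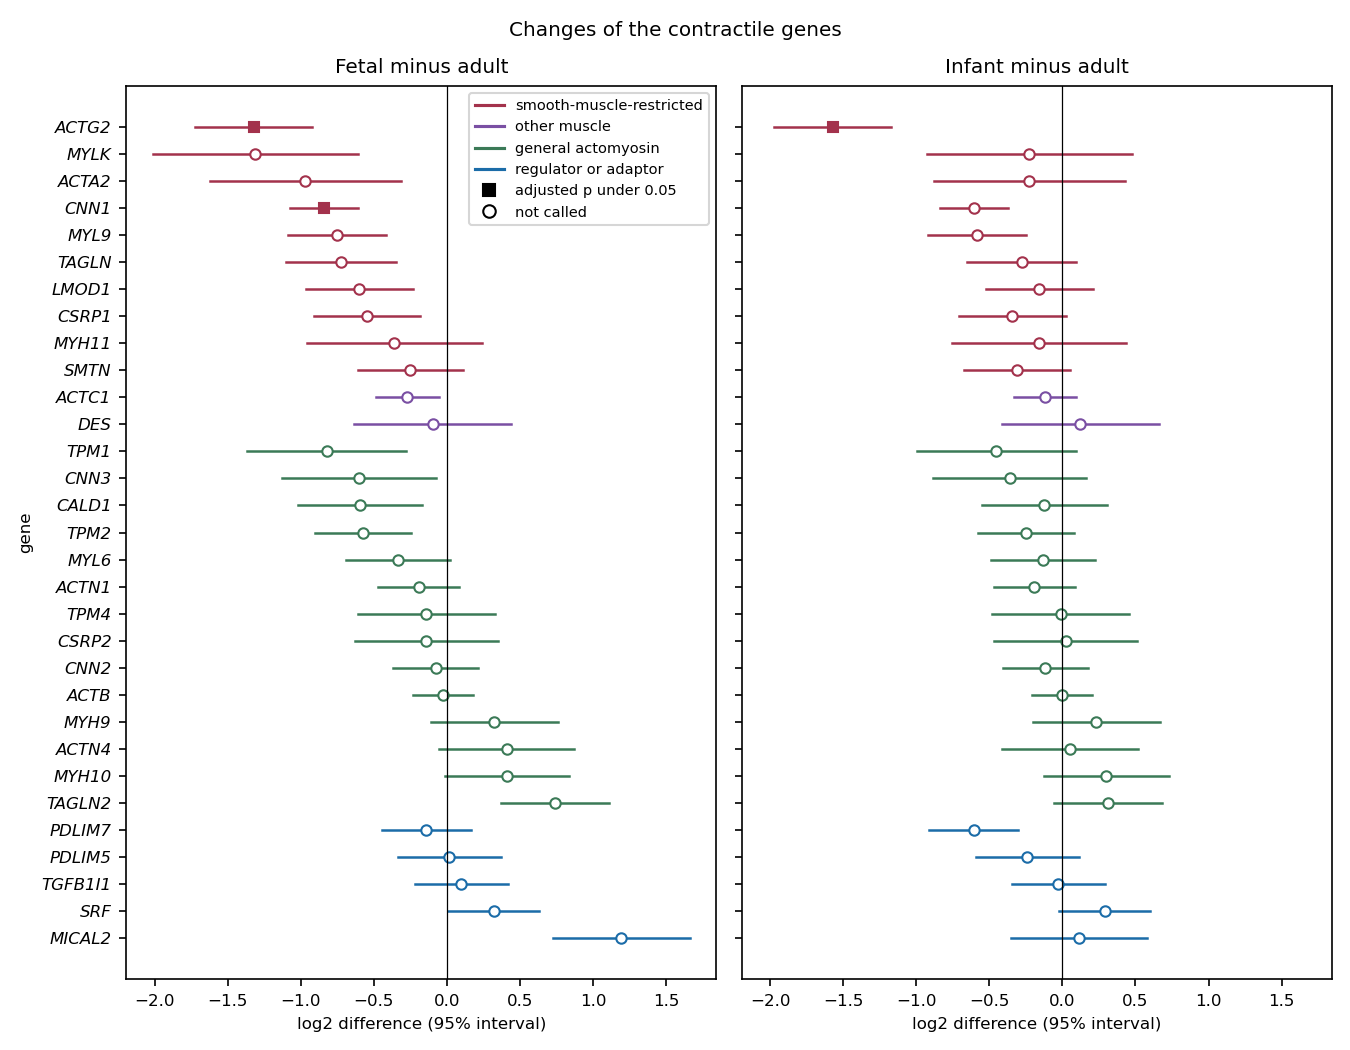
Log2 difference (horizontal axis, with 95% interval) of each of the 31 measured genes (vertical axis) between titled groups, coloured by list. All 10 smooth muscle genes lie left of 0 in fetal minus adult and in infant minus adult, with ACTG2 at -1.32 and -1.57, and MICAL2 lies farthest right in fetal minus adult at 1.19.

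The tropomyosins are coiled coils that lie along actin and gate myosin. TPM2 measured 10.35, 10.58, 10.84 and 10.84 on the fetal arrays, 10.82, 11.29, 11.02 and 10.78 on the infant arrays, and 11.42, 11.22 and 11.04 on the adult arrays. No fetal array reached the adult range, and infant arrays 1 and 4 lay below fetal arrays 3 and 4. The difference of fetal from adult was -0.57 (SE 0.15, adjusted p = 0.212). TPM1 measured 10.93 to 11.38 on the fetal and 11.80 to 12.26 on the adult arrays, a difference of -0.82 (SE 0.25, adjusted p = 0.292). The infant arrays of TPM1 were split, with arrays 1 and 2 at 11.99 and 12.17 and arrays 3 and 4 at 11.01 and 11.05. TPM4 showed the same split, with 11.29 and 11.39 on infant arrays 1 and 2 and 10.32 and 10.69 on infant arrays 3 and 4. Its fetal to adult difference was -0.14 (95% interval -0.61 to 0.33).

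CALD1, caldesmon, holds back the actomyosin ATPase and exists in a smooth muscle and a general form. It measured 10.74, 11.59, 11.25 and 11.81 on the fetal arrays, 11.84, 12.10, 11.61 and 11.73 on the infant arrays, and 11.93, 11.94 and 11.96 on the adult arrays. Fetal array 4 was the highest of its group and still below the adult arrays, and the difference was -0.60 (SE 0.20, adjusted p = 0.343). The 8 probe sets of CALD1 gave differences from -1.20 to 0.01, with 7 of them below 0.

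TAGLN2, the transgelin found outside muscle, ran opposite to TAGLN. It measured 12.02, 11.74, 11.55 and 11.32 on the fetal arrays, 11.14, 11.17, 11.63 and 10.99 on the infant arrays, and 10.90, 10.77 and 11.10 on the adult arrays. All fetal arrays were above all adult arrays, with a difference of 0.74 (SE 0.17, adjusted p = 0.133). The other TAGLN2 probe set differed by 0.42 in the same direction. In the calponin family, CNN1 differed by -0.84, CNN3, an actin-binding calponin of non-muscle cells, by -0.60 (SE 0.25, adjusted p = 0.475), and CNN2 by -0.08 (95% interval -0.37 to 0.21).

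**Figure D3:**
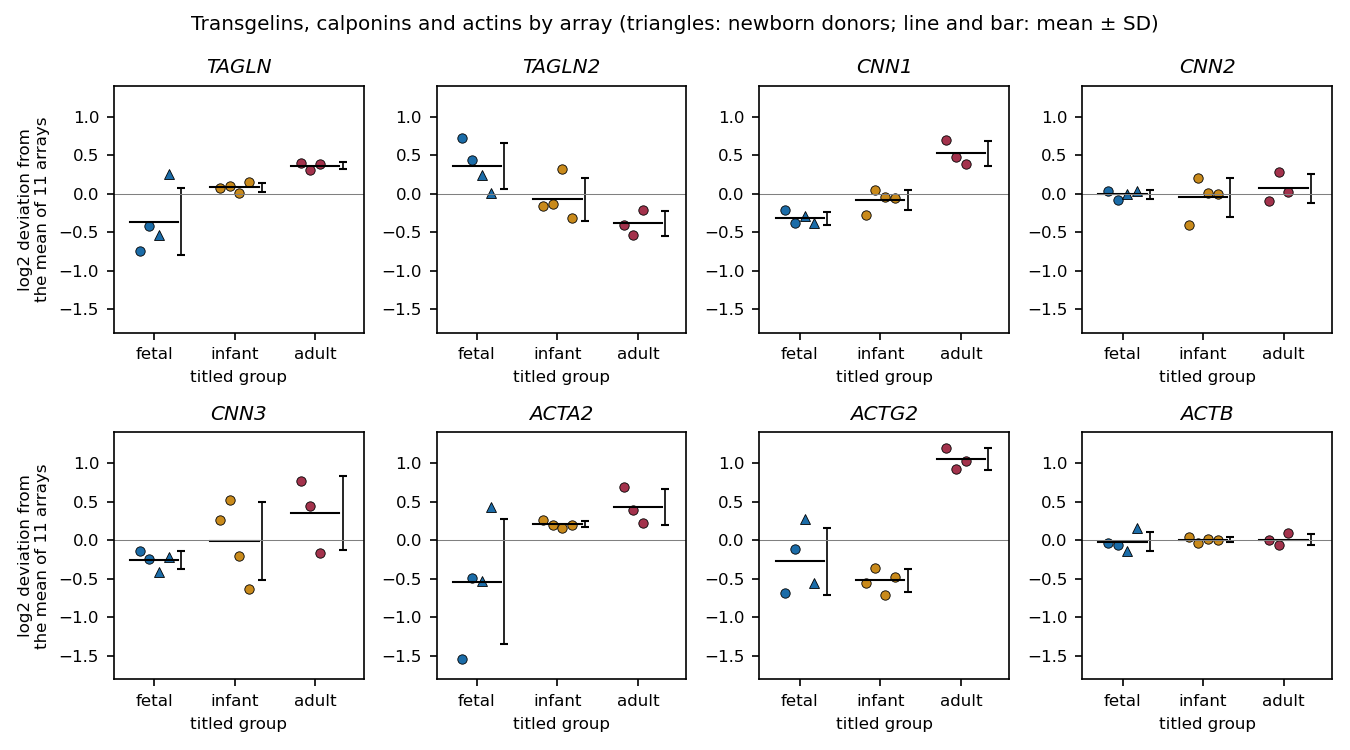
Deviation of log2 intensity from the gene's mean over 11 arrays (vertical axis) for transgelins, calponins and actins, by titled group (horizontal axis). Circles are arrays, triangles newborn donors, and lines with bars the group mean ± SD. TAGLN is low and TAGLN2 high in the fetal group (-0.72 and 0.74 against adult), and ACTB differs by -0.027, or by 0.085 after quantile normalization.

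ACTB, the cytoplasmic beta actin used as a loading control, measured 14.76 to 15.06 on the fetal, 14.87 to 14.94 on the infant and 14.84 to 14.99 on the adult arrays. Its fetal to adult difference was -0.027 (95% interval -0.23 to 0.18), and 0.085 after quantile normalization. The 8 probe sets that carry both ACTG1 and ACTB differed by 0.06 to 0.21, and cytoplasmic beta and gamma actin cannot be told apart in them.

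The myosin heavy chains of non-muscle cells did not follow the smooth muscle genes. MYH10 measured 11.84 to 12.90 on the fetal and 11.85 to 11.95 on the adult arrays, a difference of 0.41 (SE 0.20, adjusted p = 0.580). MYH9 differed by 0.32 (SE 0.20, adjusted p = 0.693), and the actin crosslinker ACTN4 by 0.41 (SE 0.22, adjusted p = 0.626). Its relative ACTN1 differed by -0.19 and the essential light chain MYL6 by -0.34, both with a 95% interval that includes 0. CSRP2, a LIM protein related to CSRP1, differed by -0.14.

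The contrast between the lists was described from the medians. In fetal minus adult the smooth muscle median was 0.60 below the general median, and in infant minus adult it was 0.23 below. The mean deviation of the smooth muscle genes from their own means was -0.65, -0.38, -0.31 and 0.040 on fetal arrays 1 to 4. It was -0.027, 0.076, -0.16 and 0.093 on infant arrays 1 to 4 and 0.41, 0.32 and 0.60 on adult arrays 1 to 3. The same quantity for the general genes stayed between -0.21 and 0.18 on all 11 arrays.

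**Figure D4:**
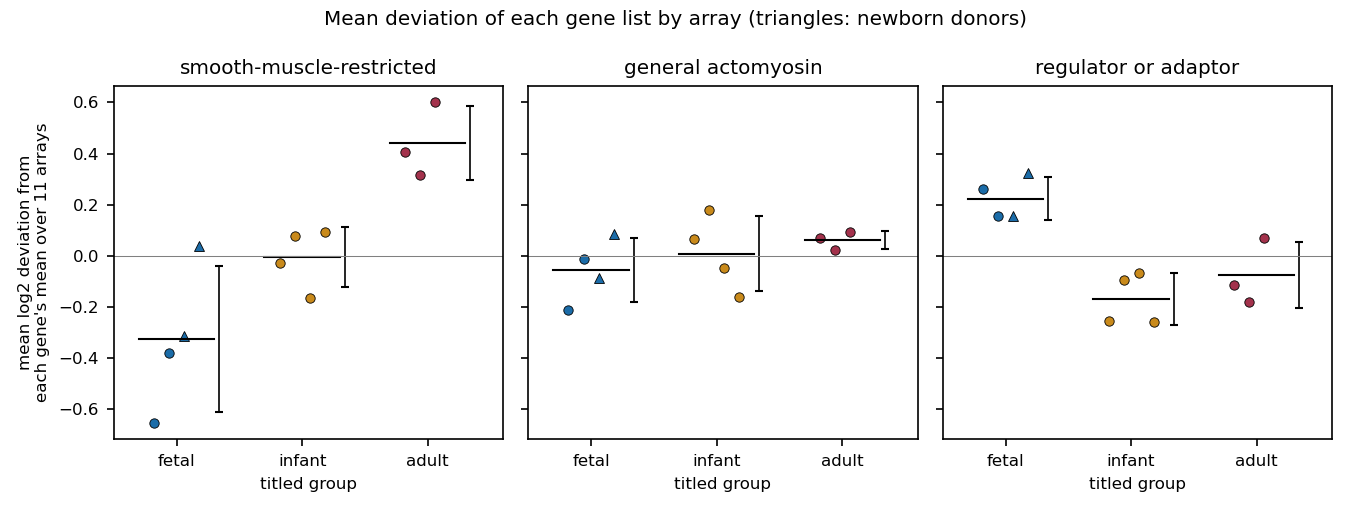
Mean log2 deviation from each gene's mean over 11 arrays (vertical axis) for the gene lists, by titled group (horizontal axis), with triangles for newborn donors and lines with bars for the group mean ± SD. The smooth muscle list runs from -0.65 on fetal array 1 to 0.60 on adult array 3, and the regulators are above 0 on all fetal arrays (0.15 to 0.33). Of the 5 regulators MICAL2 has the largest fetal minus adult difference (1.19), and the median of the 5 is 0.099.

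Of the 5 regulators, 4 were higher and 1 lower in fetal than in adult cultures, where 50.1% of all genes were lower. The median difference of the 5 was 0.099, and the 4 include PDLIM5 (0.016) and TGFB1I1 (0.099). After quantile normalization 3 of the 5 were higher and 2 lower, with a median of 0.0079. Over all 20 probe sets of the regulators 10 were higher and 10 lower, with a median of -0.0032. MICAL2 is a nuclear monooxygenase that oxidises actin and thereby frees the cofactor of SRF. It measured 9.79, 9.22, 9.52 and 9.53 on the fetal arrays, 8.50, 8.29, 8.69 and 8.26 on the infant arrays, and 8.16, 7.84 and 8.97 on the adult arrays. The fetal arrays stood above all others. The level was 2.29-fold higher in fetal than in adult cultures (1.19, SE 0.22, adjusted p = 0.0541), above the threshold. Without adult array 3 the difference was 1.52 (adjusted p = 0.000344) and was called, as it was without fetal array 4 (adjusted p = 0.0495). On all 11 arrays it was called after median centring or on probe sets above the median level (adjusted p = 0.0424 in each), with array weights (adjusted p = 0.0165) and with an intensity trend (adjusted p = 0.0373). It was not called after quantile normalization, as a mean over probe sets or with gestation day 120 arrays as the fetal group (adjusted p = 0.155). Nor was it called without fetal array 1, 2 or 3, or without adult array 1 or 2. Against infants the difference was 1.08 (SE 0.20, adjusted p = 0.197).

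SRF measured 9.16, 8.75, 8.51 and 9.07 on the fetal arrays, 8.82, 9.06, 8.75 and 8.73 on the infant arrays, and 8.56, 8.60 and 8.50 on the adult arrays. The adult arrays were lower than the infant arrays without overlap, and the fetal difference from adult was 0.32 (SE 0.15, adjusted p = 0.537). PDLIM7, a PDZ and LIM protein of stress fibres, was lowest in infants on its brightest probe set, at 8.42, 8.74, 8.93 and 8.49 against 9.12, 9.08, 9.29 and 8.95 in fetal and 9.08, 9.17 and 9.50 in adult cultures. The infant difference from adult was -0.61 (SE 0.14, adjusted p = 0.375) and the fetal difference from infant 0.47 (SE 0.13, adjusted p = 0.497). TGFB1I1, or Hic-5, a focal adhesion protein, had overlapping groups at 9.67 to 10.08, 9.54 to 10.10 and 9.63 to 9.98 in fetal, infant and adult order. PDLIM5 differed by 0.02 (95% interval -0.34 to 0.37).

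Between infant and adult cultures, ACTG2 alone of the 31 was called. All 10 smooth muscle genes had a lower infant mean, with a median of -0.30, where 54.7% of all genes were lower and their median was -0.017. Over all genes 0.0251% were called lower and 0.00836% higher. At unadjusted p under 0.05, 3 of the 10 were lower (ACTG2, CNN1 and MYL9) and 0 higher, against 4% and 2.58% of all genes. ACTG2, CNN1, MYL9 and TAGLN had infant arrays wholly below adult arrays, 4 of 10 where 3.22% of all genes had them below and 1.85% above. The ACTG2 call was lost without infant array 3 (-1.51, adjusted p = 0.0651) and without adult array 1 (-1.50, adjusted p = 0.135), and CNN1 was called without adult array 3 (adjusted p = 0.0379). Also without adult array 3, MYH11 (0.30), LMOD1 (0.022) and MYLK (0.012) were higher in infants. Over the 16 probe sets of the smooth muscle genes 13 were lower and 3 higher in infants. SMTN differed by -0.31 on its brightest probe set and by 0.28 on its other. The general genes had a median of -0.065, with none at unadjusted p under 0.05. The fetal and infant comparisons share the adult arrays, so that their values are not independent of each other.

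Between fetal and infant cultures limma called no gene, with 0% of all genes called in either direction. At unadjusted p under 0.05 were 5 smooth muscle genes in the lower direction, CNN1, ACTA2, TAGLN, MYLK and LMOD1, and 0 in the higher. Over all genes 2.23% had such a p in the lower and 5.37% in the higher direction. Of the 10 smooth muscle genes 8 were lower in the fetal group, where 45.4% of all genes were, with a median of -0.22. No member had fetal arrays wholly below the infant arrays, and MICAL2 and PDLIM7 had them wholly above, against 1.07% and 2.32% of all genes. TAGLN was called without fetal array 4 (adjusted p = 0.0344).

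An F test over the 3 groups called the same pair, ACTG2 (adjusted p = 0.0106) and CNN1 (adjusted p = 0.0252), where 0.0502% of all genes were called. It called neither gene without adult array 1 or without adult array 2, ACTG2 alone without fetal array 1, 2 or 3, and 5 members without fetal array 4, where the calls over all probe sets were 67 in place of 8. MICAL2 came next among the members with an adjusted p of 0.0786.

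Within the fetal group the newborn arrays were compared with those of gestation day 120, 2 against 2. Of the 31 members, 26 were higher in newborn cultures, where 48.5% of all genes were higher, and 9 of the 10 smooth muscle genes were, with a median of 0.35. No gene was called by limma, 0% of all genes, and the smallest adjusted p was 1. At unadjusted p under 0.05 were ACTA2 (0.97, SE 0.32), MYL9 (0.48, SE 0.17) and SMTN (0.45, SE 0.19) in the higher and TAGLN2 (-0.45, SE 0.20) in the lower direction, against 0.986% and 1.09% of all genes. The newborn arrays were not alike. For ACTA2 fetal array 4 measured 12.76, while fetal array 3, also from a newborn, measured 11.80, near fetal array 2 at 11.84. For MYL9 they measured 9.09 and 8.60 against 8.53 on fetal array 2, and for SMTN fetal array 3 was the higher of the pair, at 8.65 against 8.49.

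Read apart, the stages gave different distances from adult cultures. Against adults, the cultures of gestation day 120 were lower for all 10 smooth muscle genes, with a median of -0.88. ACTG2 (-1.45, adjusted p = 0.0247), MYL9 (-0.99, adjusted p = 0.0247) and CNN1 (-0.82, adjusted p = 0.0411) were called, with 0.0669% of all genes called lower. Newborn cultures were lower for all 10 with a median of -0.50 and none called, against 0.00836% of all genes called lower. Among them the largest newborn difference was that of ACTG2 at -1.19 (adjusted p = 0.314), followed by MYLK at -1.02 (adjusted p = 0.910). The newborn difference of CNN1 was -0.86 (adjusted p = 0.122), beside -0.82 at gestation day 120. For CNN1 the difference was thus no smaller in newborns, where it was not called. These comparisons share the adult arrays.

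Probe sets of one gene did not always run together. MICAL2 had 3, which differed by 1.19, 0.39 and -0.047 between fetal and adult cultures. The first was the brightest, at a mean of 8.80, and the others averaged 7.25 and 7.28. TPM2 had a brighter probe set at -0.57 and a dimmer one at 0.15. SRF had 0.32 and -0.05, and the brightest probe set of PDLIM7 differed by -0.14 and its 4 others by 0.06 to 0.29. Between infant and adult cultures those 4 differed by 0.05, 0.17, 0.16 and -0.05, against -0.61 for the brightest. The 4 probe sets of TPM1 were all below 0, from -0.82 to -0.08, as were the 4 of MYH11, from -0.36 to -0.01. ACTA2 had a dimmer probe set, averaging 7.10, at -0.25. Over all 16 probe sets of the smooth muscle genes, 15 were lower in the fetal group, with a median of -0.45, and over the 33 of the general genes 22 were, with a median of -0.11.

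**Figure D5:**
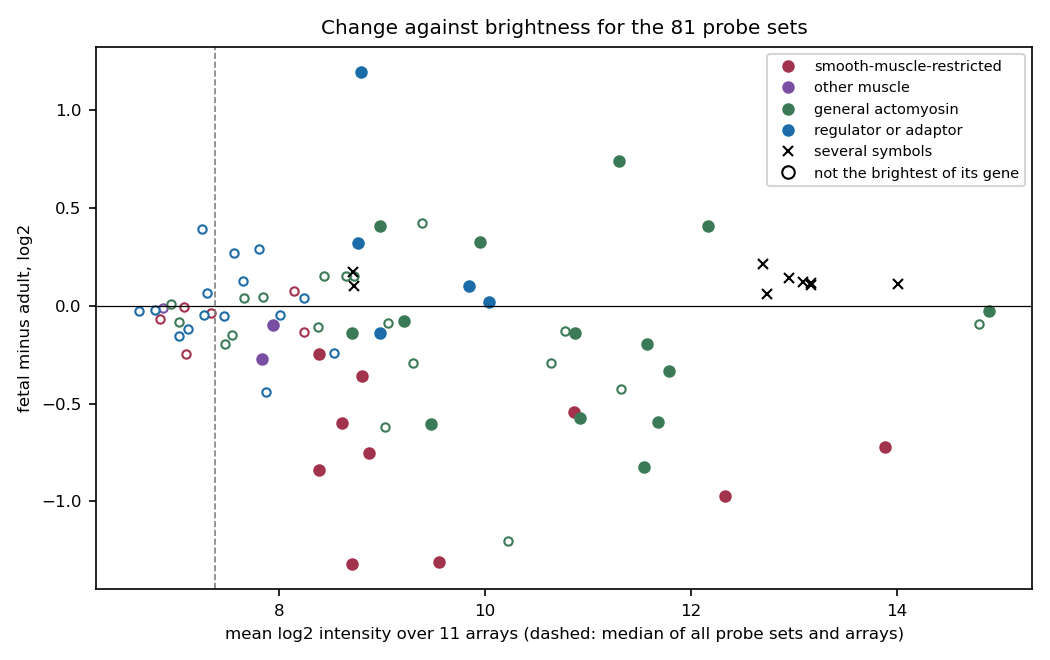
Fetal minus adult difference in log2 (vertical axis) against mean log2 intensity over 11 arrays (horizontal axis) for the 81 probe sets with a member's symbol, coloured by list, with a dashed line at 7.38, the median of all probe sets and arrays. The differences beyond 1 in size, among them those of ACTG2 (-1.32), MYLK (-1.31) and MICAL2 (1.19), all lie right of the dashed line.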

How the data were processed

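Total RNA was measured on human-probe oligonucleotide arrays. The deposited values are linear intensities per probe set, which the authors processed with RMA per the submitters' processing notes (no version given), and log2 was taken here first. RMA normalises between arrays, so differences in total brightness are removed. No detection call was used. Probe sets were named from the platform table: 19065 carried 1 symbol, 1043 several and 2107 none. A gene was read from its 1-symbol probe set of highest mean.

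Group means by title were fitted to all 11 arrays with limma 3.58.1 (R 4.3.3, lmFit and eBayes). Contrasts were two-sided and p-values were adjusted by Benjamini-Hochberg across the 22215 probe sets. A fit of 4 stage means set newborns against gestation day 120. The fits were tested on simulated data. Shares of all genes are over 11963 representative probe sets. The number of arrays limits the precision.

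The members and lists were chosen with earlier results of these data known. Genes given with values on each array were those called, the 12 of smallest F test p, the extremes of each list and those whose probe sets disagree. A further pathway list is not reported here. MYH10, TPM1, TPM4, CNN2, CNN3, MYH9, MYL6, ACTN1, ACTN4, CSRP1, CSRP2, SMTN, PDLIM5 and the cell type markers were added after their values were seen.

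Titles share replicate numbers. Same-numbered infant and adult arrays deviated together (correlations 0.145, 0.131 and 0.204), which passed the check for pairs set at 0.1, although number 2 correlated higher with another number (0.258). Other groups did not pass. Alternatives are given in the closing section.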

Additional observations from a re-analysis of the deposited data

Results flagged for a closer look

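Of 68 groups of 4 arrays tested, over 31 genes and 3 list means, 3 held an array far from the others, where chance gives about 1 in 20. DES measured 8.48 on fetal array 4 against 7.53 to 7.68 on the other fetal arrays. TPM4 measured 10.7 on fetal array 2 against 10.80 to 10.81, a small gap in a tight group. CSRP2 measured 8.01 on infant array 4 against 8.94 to 9.12.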

How the results depend on the processing

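The counts of called member probe sets were sensitive to arrays and to the replicate block. Fetal vs adult, 2 were called, of 29 over all probe sets. With the replicate number as a block 7 were (ACTG2, CNN1, MICAL2, MYL9, MYLK, TAGLN and TAGLN2), of 221, and with 1 array left out 0 to 8, of 4 to 153. Median centring, array weights, an intensity trend and the level filter gave 3 each, with MICAL2 added. The groups did not pass the check for pairs, with same-number correlations of 0.068, 0.043 and -0.096. Infant vs adult, 1 was called, of 4, also with the block, of 9, and 0 to 2 with 1 array left out, of 0 to 55. Fetal vs infant, 0 were called, and 0 to 1 with 1 array left out, of 0 to 21. The F test over 3 groups called 2, of 8, with the block 5, of 101, and with 1 array left out 0 to 5, of 2 to 95. Newborn against gestation day 120 gave 0 members under each alternative run. The cause of these shifts was not tested. Leaving out adult arrays 1 and 2 together leaves 1 adult array, assumed to vary like the other groups. It gave 0 calls against fetal and 0 against infant cultures, with ACTG2 at -1.30 and -1.56. The smooth muscle median stayed below the general median when genes were moved between the lists, probe sets averaged, several-symbol probe sets added or 1 array left out, by 0.51 to 0.75 in fetal and by 0.12 to 0.33 in infant cultures against adults. With MYL9, MYLK and CSRP1 in the general list it differed by -0.53 in fetal and -0.15 in infant cultures. With TPM1, TPM2, CALD1 and CSRP2 in the smooth muscle list it differed by -0.61 and -0.26.

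Of 882 values of 18 named genes under alternatives, 817 kept direction and side of the threshold, 12 lost and 19 gained a call, and 34 changed sign, none of them with an unadjusted p under 0.05 at first. ACTB was 0.085 (fetal minus adult), 0.021 (infant minus adult) and 0.064 (fetal minus infant) after quantile normalization. Its infant minus adult value was 0.013 after median centring, 0.00369 with array weights and 0.0033 as a mean over probe sets. Without adult arrays 1 and 2 together the infant minus adult value was -0.10 for DES and -0.53 for MICAL2. PDLIM7 was 0.12 (fetal minus adult) as a mean over probe sets. SRF (fetal minus infant) was -0.042 after quantile normalization and -0.013 with array weights, and TGFB1I1 (infant minus adult) was 0.040 with array weights.

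With 1 array left out, the fetal minus adult value ranged from -0.086 to 0.014 for ACTB, from -0.31 to 0.014 for DES and from -0.66 to 0.10 for MYH11. The infant minus adult value ranged from -0.036 to 0.038 for ACTB, from -0.057 to 0.31 for DES, from -0.27 to 0.022 for LMOD1, from -0.13 to 0.44 for MICAL2, from -0.46 to 0.30 for MYH11, from -0.45 to 0.016 for MYLK and from -0.13 to 0.054 for TGFB1I1. The fetal minus infant value ranged from -0.084 to 0.016 for ACTB and from -0.067 to 0.15 for SRF.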
